A study of Mus musculus with 12 samples.

Results

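Transcripts of the sarcoplasmic reticulum calcium store (Atp2a2, Pln, Ryr2, Casq1, Casq2, Trdn, Asph, Hrc, Jph2 and S100a1) were followed in mouse hearts after cardiac loss of Slc4a4, which encodes NBCe1, an electrogenic cotransporter of sodium and bicarbonate. They were chosen by function (pump, release channel, calcium buffers and junction proteins) and matched by symbol to the gene identifiers of the count table, which gave 10 of 10 members among 24061 genes. Knockout hearts (K7 to K12) came from Slc4a4 flx/flx mice that carried Cre, and wild type hearts (W1 to W6) from Slc4a4 flx/flx mice without Cre. All 12 mice were males aged 4 months, each genotype had 6 hearts, and every library was made from the total RNA of 1 whole heart. Cre was driven by a β-myosin promoter that is active in cardiac myocytes and removed exon 12 of Slc4a4. Both groups carried the floxed alleles and only knockouts carried Cre, so the deletion and Cre itself cannot be told apart. Other cells of the heart keep intact Slc4a4 and contribute to the RNA, and in such bulk samples fewer cells of a type and less RNA per cell cannot be told apart. The comparison asks whether transcripts of the store differ when cardiac myocytes lose the cotransporter.

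In each heartbeat a small calcium current through the cell membrane opens ryanodine receptors, and the calcium they release from the sarcoplasmic reticulum starts contraction. The calcium pump SERCA2 then returns calcium to the store, under the brake of phospholamban, while calsequestrin and other luminal proteins hold it close to the release sites. Bicarbonate import by NBCe1 brings in sodium, and cell sodium sets how much calcium the sodium-calcium exchanger can remove, which links this transporter to the calcium load of the store.

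The libraries held 10631869 to 13327519 counts with 16248 to 16919 genes detected. Knockout libraries were shallower, at 11274054 ± 773973 counts, against 12455870 ± 842736 in wild type (SD, n = 6 each; exact two-sided permutation p = 0.0303). Slc4a4 measured 38.4 to 68.5 CPM (reads of a gene for every 1000000 counts of a TMM-scaled library) in knockout hearts and 63.6 to 105.7 CPM in wild type hearts, with 5 of 6 knockout hearts below every wild type heart. Its log2 fold change was -0.81 ± 0.14 (SE), with an edgeR adjusted p of 0.0891. These are counts over the whole gene, not over exon 12, and K8, at 68.5 CPM, lay inside the wild type range. The summed level of 10 cardiac myocyte markers was 48284 to 54180 CPM in knockout hearts and 49446 to 58138 CPM in wild type hearts, with none of the 10 at 0. Among markers of other cells, the red cell genes Hba-a1, Hba-a2, Hbb-bs, Hbb-bt and Alas2 had an edgeR unadjusted p under 0.05 and were lower in knockout hearts, but Hba-a1 and Hba-a2 hold 1 shared set of counts, and Slc4a1 was not under that p. The 7 red cell markers, with that shared set entered for both genes, summed to 4567 to 10937 CPM in knockout hearts and 5478 to 30650 CPM in wild type hearts. The medians lay closer, at 6290 CPM in knockout hearts and 6964 CPM in wild type hearts. The highest wild type sums were those of W2 and W3, at 30650 and 14184 CPM. Of the liver markers Alb, which encodes serum albumin, had 1.33 to 62.8 CPM in knockout hearts and 0 to 1.09 CPM in wild type hearts, with no overlap (log2 fold change 5.43 ± 0.89 SE, edgeR unadjusted p = 6.0e-06, adjusted p = 0.0832). Serpina1a, too low to test, lay above every wild type heart in 5 of 6 knockout hearts, while Cyp2e1 overlapped and made up most of the wild type liver sum. The 7 liver markers summed to 28.3 to 98.5 CPM in knockout hearts and 20.7 to 38.9 CPM in wild type hearts. The part of red cell and liver transcripts in the results was not tested. The summed markers of endothelium, fibroblasts, smooth muscle, macrophages, fat and atria overlapped between the genotypes. Among their single genes Col3a1 of fibroblasts and Acta2 of smooth muscle had an edgeR unadjusted p under 0.05. Both were higher in knockout hearts, with log2 fold changes of 0.18 ± 0.07 (SE, edgeR unadjusted p = 0.0144) and 0.39 ± 0.17 (SE, edgeR unadjusted p = 0.0324). Each had 3 of 6 knockout hearts above all wild type hearts, and Acta2 had 1 below.

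The pump, its inhibitor and the release channel were among the most abundant transcripts of these hearts. The 10 members together took 2.82% to 3.15% of all counts of a library, and by counts Atp2a2 ranked 3rd, Pln 7th and Ryr2 14th in the table, with Casq1, the lowest member, at 5569. No member passed the threshold of 0.05 after adjustment for all 13832 genes tested (edgeR quasi-likelihood test, every adjusted p 0.999), and of all genes 0.0% passed. At an unadjusted p under 0.05 the count was 2 of 10 members, Casq1 and Casq2, both higher in knockout hearts, where 4.06% of all genes lay under that p and 2.07% did so on the higher side. Knockout and wild type hearts overlapped for all 10 members, and 0.253% of all genes had no overlap. Of the log2 fold changes 6 were positive and 4 negative, with a median of 0.07 against 0.00 over all genes tested. The median size without sign was 0.07 for the members and 0.08 for all genes. DESeq2 called 0 members, with a lowest member adjusted p of 0.949 for Casq2, and 0.057% of the 19308 genes it tested. Limma-voom called 0 members as well, and 2 of 10, again Casq1 and Casq2, had an unadjusted p under 0.05 in both tools. Over all genes that share was 3.62% in DESeq2 and 4.1% in limma-voom, and limma-voom called 0.0% of them after adjustment. The log2 fold changes of the members had standard errors of 0.05 to 0.14, which include the spread between hearts, against a median of 0.12 over all genes.

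**Figure D1:**
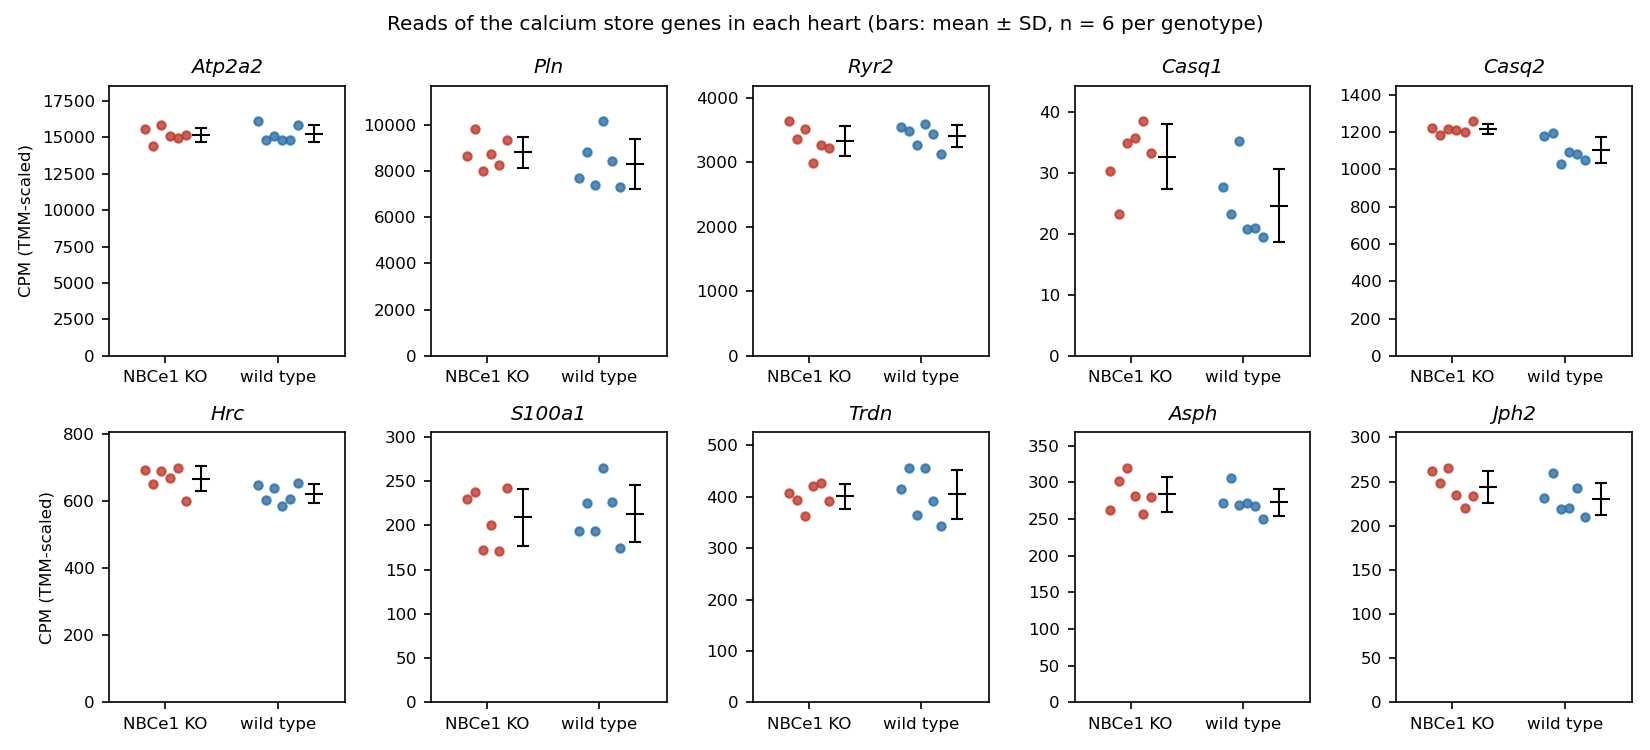
Reads of the 10 calcium store genes in each heart, in CPM on TMM-scaled library sizes with every axis starting at 0; knockout hearts are red, wild type hearts blue, and the bars are means ± SD (n = 6 each). Casq2 shows 5 of 6 knockout hearts above every wild type heart, Hrc 4 of 6 and Casq1 2 of 6, and the genotypes overlap in every panel.

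Calsequestrins are the high-capacity calcium buffers in the lumen of the store, and they bind next to the release channel through triadin and junctin. Casq2, the cardiac form, measured 1186 to 1258 CPM in knockout hearts with a median of 1215 CPM, and 1029 to 1194 CPM in wild type hearts with a median of 1087 CPM. The overlap rested on a single pair of hearts, since only K11, at 1186 CPM, lay below W2, at 1194 CPM, and the other 5 knockouts exceeded the wild type maximum. Such a pattern was found in 0.824% of all genes. The difference was 10.1% (95% interval 1.61% to 19.4%), with a log2 fold change of 0.14 ± 0.06 (SE), an unadjusted p of 0.0213 and an adjusted p of 0.999 in edgeR. Without W3, the lowest wild type heart, the log2 fold change was 0.12 and the unadjusted p 0.0553. The spread between hearts was narrower in knockouts, with a coefficient of variation of 1.99% against 6.14% in wild type hearts, and that difference in spread was not tested.

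Casq1, the form that predominates in skeletal muscle, was the scarcest member and the one with the largest fold change of the 10. It measured 23.3 to 38.5 CPM in knockout hearts with a median of 34.1 CPM, and 19.5 to 35.3 CPM in wild type hearts with a median of 22.1 CPM. All knockout hearts but K11 (23.3 CPM) had at least 30.2 CPM, and all wild type hearts but W3 (35.3 CPM) had at most 27.7 CPM. The estimate was 32.8% higher (95% interval 8.73% to 62.1%), a log2 fold change of 0.41 ± 0.14 (SE), with an unadjusted p of 0.00774 and an adjusted p of 0.999 in edgeR. Leaving out W3 gave 0.54 and leaving out K11 gave 0.49 on the same log2 scale.

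Because Casq1 is abundant in skeletal muscle, 14 fast skeletal muscle genes were set beside it. Their summed level was 54.8 to 73.7 CPM with a median of 70.7 CPM in knockout hearts, and 50.5 to 60.2 CPM with a median of 56.2 CPM in wild type hearts. Cacna1s, the skeletal muscle calcium channel subunit, made up most of that difference. Without it the sum of the other 13 was 23.8 to 31.1 CPM in knockout hearts and 24.3 to 31.4 CPM in wild type hearts, ranges that nearly coincide. Most of that sum was Myh1 and Myh4, so it says little about the scarcer genes. Myh1 averaged 10.1 CPM in knockout hearts and 11.8 CPM in wild type hearts, and Myh4 10.4 CPM and 11.1 CPM. The myogenic factors Myod1 and Myog were at 0 in every heart. The part of skeletal muscle transcripts in the Casq1 level was not tested. Of the 14 genes 4 were abundant enough to test, and 2 of them, Cacna1s and the skeletal calcium pump Atp2a1, had an unadjusted p under 0.05 in edgeR, both higher in knockout hearts.

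The promoter windows of both calsequestrin genes are shown because these were the members under an unadjusted p of 0.05. Windows run from 250 bases before to 50 after the start site in RefSeq (GRCm38.p6), and 7 of 10 members had one. They were searched on both strands for TATAAA, the E-box CANNTG that myogenic factors recognise, the M-CAT motif CATTCC, the SRF CArG box and the MEF2 box, and capitals mark every match. Casq2 lies on chromosome 3 (102086415 to 102146514, plus strand), and its window is chr3:102086165-102086464. Casq1 lies on chromosome 1 (172209894 to 172219895, minus strand), and its window is chr1:172219846-172220145, printed on the minus strand.
Casq2: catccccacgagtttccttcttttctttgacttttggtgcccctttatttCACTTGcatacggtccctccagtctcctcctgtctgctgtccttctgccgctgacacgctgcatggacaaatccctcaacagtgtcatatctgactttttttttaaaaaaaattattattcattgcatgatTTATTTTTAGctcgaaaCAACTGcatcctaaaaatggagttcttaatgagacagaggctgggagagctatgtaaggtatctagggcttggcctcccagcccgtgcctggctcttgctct
Casq1: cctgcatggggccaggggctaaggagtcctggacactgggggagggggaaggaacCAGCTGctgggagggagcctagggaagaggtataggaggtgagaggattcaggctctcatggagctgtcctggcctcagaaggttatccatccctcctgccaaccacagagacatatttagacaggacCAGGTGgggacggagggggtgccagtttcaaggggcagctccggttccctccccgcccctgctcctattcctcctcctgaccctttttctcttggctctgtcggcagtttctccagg
Counted from the start site, with bases before it negative, a MEF2 box begins at position -69 of the Casq2 window, and E-boxes begin at -200 and -52. Casq1 holds a pair of E-boxes, which begin at -195 and -67, and these letters hold no MEF2 box. Of all 32851 windows 3.19% hold a MEF2 box and 72.3% an E-box, so the E-box is a common match and the MEF2 box a rare one. The bases G and C make up 44.7% of the Casq2 window and 60.3% of the Casq1 window, against a median of 52.7% over all windows.

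Atp2a2 encodes SERCA2, the pump that refills the store. It measured 14411 to 15824 CPM in knockout hearts with a median of 15137 CPM, and 14774 to 16093 CPM in wild type hearts with a median of 14948 CPM. Of the knockout hearts 5 of 6 fell inside the wild type range, and K11 lay just below it. The log2 fold change was -0.01 ± 0.05 (SE), with an edgeR unadjusted p of 0.904. Its 95% interval ran from -7.67% to 7.36%, so a larger difference in either direction lay outside it. The gene is on chromosome 5 from 122453513 to 122502225, minus strand.

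Pln encodes phospholamban, the small membrane protein that inhibits the pump until it is phosphorylated. Its level was 7999 to 9836 CPM in knockout hearts with a median of 8696 CPM, and 7309 to 10153 CPM in wild type hearts with a median of 8064 CPM. All 6 knockout hearts lay inside the wild type range, whose lower end held W1, W3 and W6, the 3 hearts below every knockout. The log2 fold change was 0.08 ± 0.08 (SE; 95% interval -0.08 to 0.25), with an edgeR unadjusted p of 0.291. Without W4, the highest wild type heart, it was 0.15 with an unadjusted p of 0.0417, and it was 0.05 without W3, W6 or K11. Within a heart the reads of Pln per read of Atp2a2 averaged 0.582 ± 0.0608 in knockout hearts and 0.547 ± 0.0868 in wild type hearts (SD, n = 6 each), a log2 difference of 0.10 with an exact two-sided permutation p of 0.381 (0.508 adjusted over the 4 ratios tested). That difference was 0.17 without W4, 0.06 without W1 and 0.05 without K11 or W6, and with each heart left out in turn the exact adjusted p stayed at 0.212 or more.

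Ryr2 encodes the cardiac ryanodine receptor, the channel through which the store empties. It measured 2990 to 3636 CPM in knockout hearts with a median of 3318 CPM, and 3123 to 3586 CPM in wild type hearts with a median of 3458 CPM. One knockout heart, K10, lay above every wild type heart and another, K7, below. The log2 fold change was -0.03 ± 0.06 (SE; 95% interval -0.16 to 0.09), with an edgeR unadjusted p of 0.605. It lay between -0.06, without K10, and -0.0026, without K7. The gene spans chromosome 13 from 11553099 to 12106945 on the minus strand, with 28.8 kb of annotated exons, the most of any member.

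Ratios of 2 genes counted in the same heart do not depend on depth or scaling. The number of Casq2 reads per Ryr2 read was 0.406, 0.368, 0.391, 0.336, 0.352 and 0.346 in K7 to K12, against 0.333, 0.343, 0.314, 0.304, 0.315 and 0.336 in W1 to W6. Of the knockout hearts only K10 lay inside the wild type range, and the other 5 lay above all of it. The mean was 0.366 ± 0.0272 in knockout hearts and 0.324 ± 0.0153 in wild type hearts (SD, n = 6 each), a log2 difference of 0.17 or 12.8%. An exact two-sided permutation test over 924 regroupings gave p = 0.00649, or 0.0260 adjusted over the 4 ratios. Of the ratios tested Casq2 to Ryr2 was the 1 past 0.05. These ratios were chosen with earlier results of these data known, and the adjustment over 4 does not cover that choice. On their own Casq2 was estimated 10.1% higher and Ryr2 had an estimate of -2.18% in knockout hearts, and neither passed the adjustment over all genes in edgeR.

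The ratio was sensitive to which hearts were included. The log2 difference stayed between 0.14 and 0.20 with each heart left out in turn, while the exact adjusted p rose past 0.05 without W1 (0.0519), W4 (0.0693), W5 (0.0693) or K7 (0.0519). The ratio also moved with a long-gene value of the libraries, the median log2 CPM deviation of 5810 genes with at least 5 kb of exon minus that of 1611 genes under 2 kb. Over the 12 hearts, each centred on its genotype, Pearson's r was -0.73 (permutation p = 0.0279, 0.0558 adjusted over 2 relations) and Spearman's rho -0.72 (permutation p = 0.0372, 0.0744 adjusted). Without K10 and K12, the hearts farthest from the median of the long-gene value, r was -0.49. The long-gene value itself ran from -0.07 to 0.07 in knockout hearts with a median of -0.01, and from -0.04 to 0.03 in wild type hearts with a median of -0.02, and its part in the difference between genotypes was not tested. With total counts the ratio had r = 0.52 (permutation p = 0.0940) and rho = 0.47 (permutation p = 0.124), and r = 0.40 without W1 and W2.

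**Figure D2:**
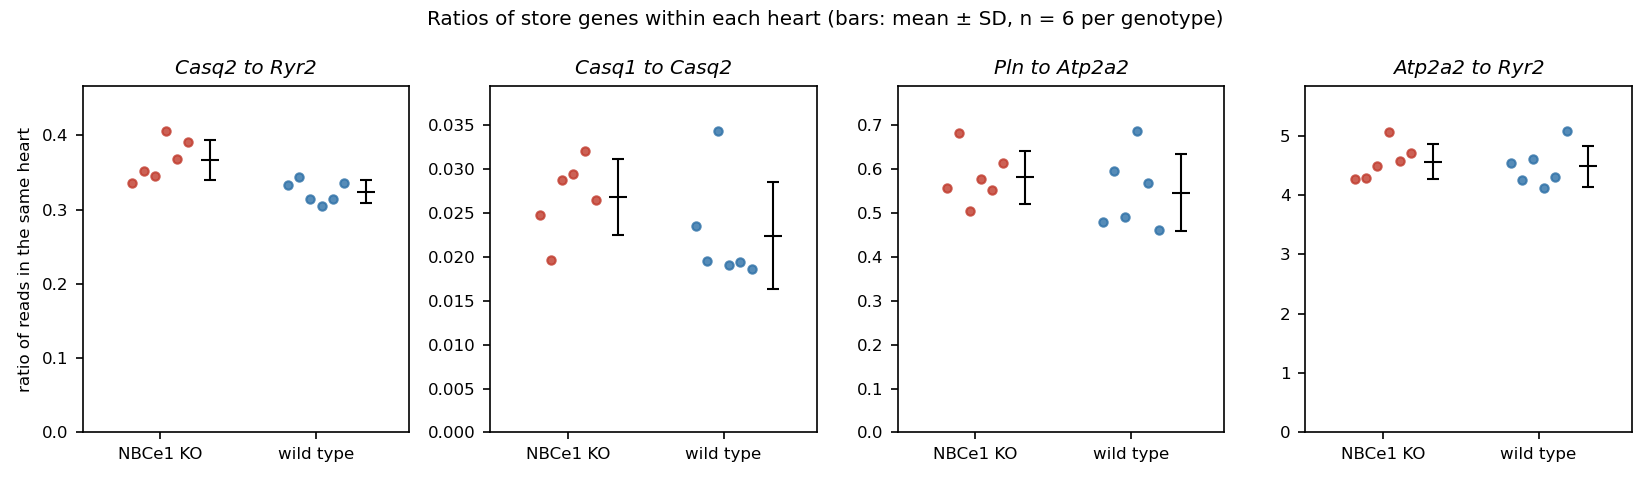
Ratios of the reads of 2 store genes within each heart, with axes from 0; knockout hearts are red, wild type hearts blue, and the bars are means ± SD (n = 6 each). Casq2 to Ryr2 shows 5 of 6 knockout hearts above the wild type maximum of 0.343, and in Casq1 to Casq2 a lone wild type heart, W3, stands at 0.0343 above all other hearts.

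The remaining ratios showed no difference past the threshold. Casq1 reads per Casq2 read averaged 0.0268 ± 0.00432 in knockout hearts and 0.0224 ± 0.00610 in wild type hearts (SD, n = 6 each), a log2 difference of 0.28 (exact two-sided permutation p = 0.136, 0.273 adjusted). Here W3 decided the outcome, because without it the difference was 0.41 with an exact adjusted p of 0.0346. Atp2a2 reads per Ryr2 read averaged 4.56 ± 0.294 in knockout hearts and 4.48 ± 0.342 in wild type hearts (SD, n = 6 each), a log2 difference of 0.03 (exact two-sided permutation p = 0.634, also after adjustment).

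Hrc and S100a1 are calcium-binding proteins that act on the pump and the channel. Hrc, the histidine-rich calcium-binding protein, sits in the lumen and binds triadin and SERCA2. It measured 599 to 699 CPM in knockout hearts with a median of 680 CPM, and 585 to 654 CPM in wild type hearts with a median of 621 CPM. The groups overlapped: 4 of 6 knockouts exceeded the wild type maximum, and K9 was the lowest knockout. The log2 fold change was 0.10 ± 0.06 (SE; 95% interval -0.02 to 0.22) with an edgeR unadjusted p of 0.0960, and without K9 it was 0.13 with an unadjusted p of 0.0387.

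S100a1, a cytosolic EF-hand protein that binds the ryanodine receptor and SERCA2, varied more between hearts than any other member but Casq1. It measured 171 to 242 CPM in knockout hearts with a median of 215 CPM, and 175 to 265 CPM in wild type hearts with a median of 210 CPM. Its coefficient of variation was 15.5% in knockout hearts and 15.2% in wild type hearts, and the genotypes overlapped almost entirely. The log2 fold change was -0.03 ± 0.10 (SE; 95% interval -0.24 to 0.19), with an edgeR unadjusted p of 0.783.

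Trdn, Asph and Jph2 build the junction where the store meets the cell membrane. Trdn encodes triadin, which ties calsequestrin to the release channel, and measured 362 to 427 CPM in knockout hearts with a median of 401 CPM, against 343 to 457 CPM in wild type hearts with a median of 404 CPM. Its knockout hearts all lay inside the wild type range, and the log2 fold change was -0.01 ± 0.07 (SE; edgeR unadjusted p = 0.853). Asph measured 256 to 320 CPM in knockout hearts with a median of 280 CPM, against 250 to 306 CPM in wild type hearts with a median of 270 CPM. Its gene-level count adds up junctin, junctate and the aspartyl hydroxylase, which are all products of this gene, so the junctin transcript by itself was not measured. The log2 fold change of Asph was 0.05 ± 0.07 (SE; edgeR unadjusted p = 0.417), and 1 knockout heart, K12, lay above all wild type hearts. Without K12 the log2 fold change of Asph was 0.02, without W6 0.03, and without W2 0.09. Jph2 encodes junctophilin 2, which holds the store membrane to the transverse tubule. It measured 220 to 266 CPM in knockout hearts with a median of 242 CPM, against 209 to 259 CPM in wild type hearts with a median of 226 CPM. Its ranges overlapped with 2 knockout hearts on top, and the log2 fold change was 0.08 ± 0.07 (SE; edgeR unadjusted p = 0.240).

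**Figure D3:**
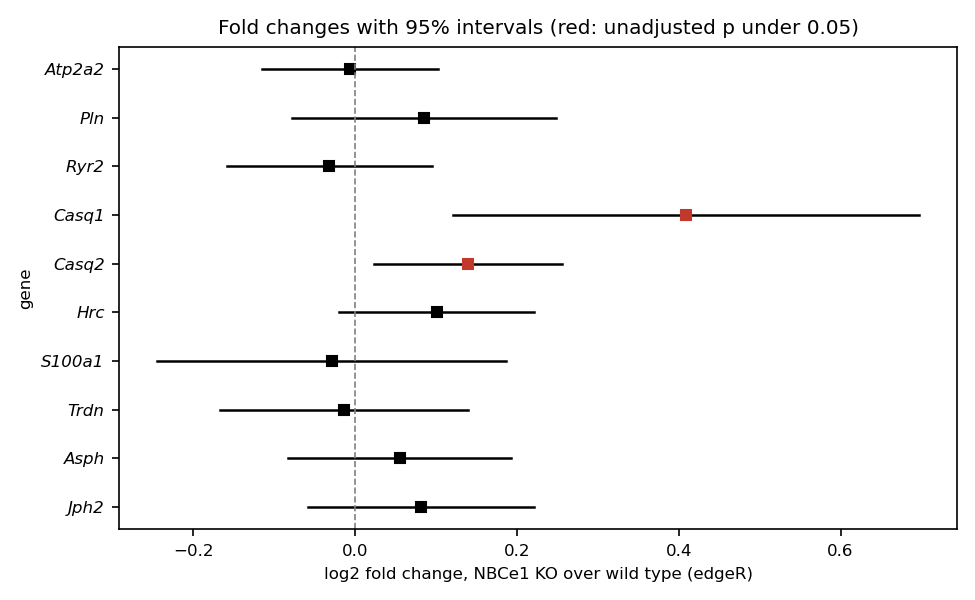
Log2 fold changes of knockout over wild type hearts for the 10 genes from edgeR, with 95% intervals; the dashed line marks no difference, and red squares have an unadjusted p under 0.05. The intervals of Casq1 (0.12 to 0.70) and Casq2 (0.02 to 0.26) lie above 0, and those of the other 8 genes include 0.

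Some members share their locus with another gene. Pln overlaps Cep85l, which averaged 13.9 CPM in knockout hearts and 15.3 CPM in wild type hearts, and Asph overlaps Clvs1, at 27.8 CPM in knockout hearts and 25.6 CPM in wild type hearts. Trdn overlaps D830005E20Rik, at 32.6 CPM in knockout hearts and 36.99 CPM in wild type hearts, and S100a1 overlaps S100a13, at 13.03 CPM in knockout hearts and 12.0 CPM in wild type hearts. Casq1 and Jph2 each overlap 1 RefSeq gene that is absent from the count table. Trdn overlaps 4 RefSeq genes and Asph 2, and for each of them 1 is in the count table. The sources used here do not give the strand setting of the counting, so how reads in the shared stretches were assigned is uncertain. No member had counts identical to those of another gene in the table.

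Levels of different genes were compared per kb of annotated exon. On that scale Pln averaged 3191 CPM per kb in knockout hearts and 3008 CPM per kb in wild type hearts, and Atp2a2 averaged 2494 CPM per kb in knockout hearts and 2505 CPM per kb in wild type hearts. They ranked 5th and 7th among 13166 tested genes with a length. Pln ran from 2649 to 3680 CPM per kb and Atp2a2 from 2370 to 2646 CPM per kb over the 12 hearts, so the lowest Pln value lay just above the highest Atp2a2 value. Casq2 followed at 445 CPM per kb in knockout hearts and 404 CPM per kb in wild type hearts. Over the 12 hearts it ran from 376 to 460 CPM per kb, far below Atp2a2.

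S100a1 came next, at 301 CPM per kb in knockout hearts and 307 CPM per kb in wild type hearts. Its highest heart, at 382 CPM per kb, reached the low end of Casq2. Hrc, at 260 CPM per kb in knockout hearts and 242 CPM per kb in wild type hearts, did not stand apart from S100a1, because the ranges over hearts, 228 to 272 CPM per kb for Hrc and 247 to 382 CPM per kb for S100a1, overlapped. Ryr2 averaged 116 CPM per kb in knockout hearts and 118 CPM per kb in wild type hearts. So the release channel was the third of the members by counts but the sixth per kb of exon. Jph2 had 57.3 CPM per kb in knockout hearts and 54.2 CPM per kb in wild type hearts, and Trdn 42.9 CPM per kb in knockout hearts and 43.3 CPM per kb in wild type hearts. Asph, at 17.6 CPM per kb in knockout hearts and 16.9 CPM per kb in wild type hearts, and Casq1, at 16.7 CPM per kb in knockout hearts and 12.6 CPM per kb in wild type hearts, came last and overlapped.

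The length used bears on this order. With the longest annotated transcript in place of all exons, Trdn averaged 89.2 CPM per kb over the 12 hearts and Jph2 56.3 CPM per kb, so they changed places. Ryr2 averaged 200.5 CPM per kb on that scale and kept the sixth place. The overlap of Asph and Casq1 was gone, at 37.4 to 47.8 CPM per kb for Asph and 10.6 to 20.8 CPM per kb for Casq1 over the 12 hearts. The highest heart of S100a1, at 391.6 CPM per kb, also lay below the lowest of Casq2, at 402.4 CPM per kb.

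**Figure D4:**
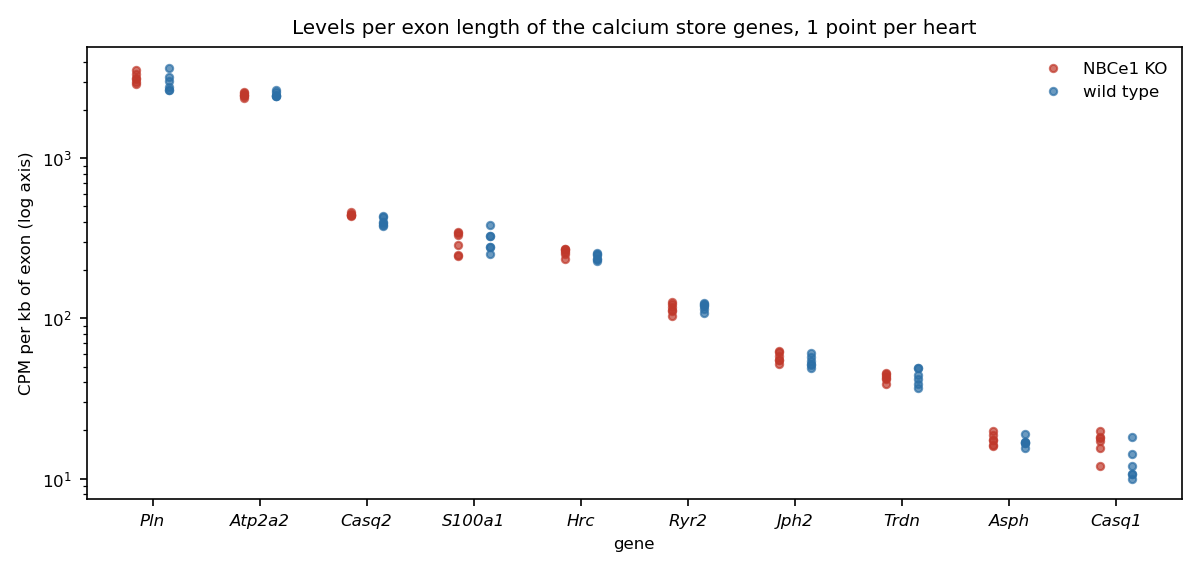
Levels of the 10 genes in CPM per kb of annotated exon on a log axis, with 1 point per heart; knockout hearts are red and stand left of wild type hearts in blue. Pln and Atp2a2 lie between 2370 and 3680 CPM per kb, and Asph and Casq1 between 10.01 and 19.9 CPM per kb, over the 12 hearts.

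Apart from genotype, 3 members varied together from heart to heart. Log2 CPM was centred on the genotype mean and all 45 pairs of members were compared over the 12 hearts, with permutation p-values adjusted over the 45. The pairs had a median r of 0.16, and 27 of them were positive. At an unadjusted permutation p under 0.05 there were 7 pairs, 4 positive and 3 negative. The share of such pairs among all genes was not measured, so these counts cannot be called particular to the store genes. A pair that did not pass the adjustment was Atp2a2 with Pln, at r = -0.69 (permutation p = 0.0219, adjusted 0.197). Its rho was -0.73 (permutation p = 0.0144, adjusted 0.163), and r was -0.59 without W1 and W6. Pln and S100a1 varied together, with r = 0.90 (permutation p = 0.00013, adjusted 0.00585), rho = 0.83 (permutation p = 0.00096, adjusted 0.0403), and r = 0.86 without W4 and K11. Hrc ran opposite to both. Against Pln it had r = -0.79 (permutation p = 0.00147, adjusted 0.0331), rho = -0.81 (permutation p = 0.00500, adjusted 0.0750) and r = -0.81 without W4 and K11. Against S100a1 it had r = -0.80 (permutation p = 0.00257, adjusted 0.0385), rho = -0.83 (permutation p = 0.00179, adjusted 0.0403) and r = -0.72 without W4 and K8.

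Hearts of both genotypes lay along these relations, with K10 an exception for Hrc and S100a1. W4 was highest for both Pln and S100a1 among wild type hearts, at 10153 and 265 CPM, and lowest for Hrc, at 585 CPM. At the other end W6 was lowest among wild type hearts for Pln and S100a1, at 7309 and 175 CPM, and highest for Hrc, at 654 CPM. Among knockout hearts K9 had the highest S100a1 and the lowest Hrc, at 242 and 599 CPM, while K8 had the lowest S100a1 and the highest Hrc, at 171 and 699 CPM. K10 lay above the knockout mean of log2 CPM for both S100a1 and Hrc, at 230 and 693 CPM. Without K10 the r of Hrc with S100a1 was -0.93.

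The number of pairs past the threshold depended on single hearts. Without W4 it was 0 of 45, with r = 0.88 and an adjusted permutation p of 0.0733 for Pln and S100a1. It was 1 of 45 without W1, W2, W3, W5, W6, K7, K8 or K12, each time Pln with S100a1, and also when only library totals were used for scaling. Without K10 it was 4, with Asph and Jph2 added at r = 0.91 (adjusted permutation p = 0.00705). Members counted in the same library share its depth, scaling and RNA quality. Pln, S100a1 and Hrc were also set against marker sums of cell types, cardiac myocytes included, the long-gene value and depth. Of these 36 relations 0 passed the adjustment, and the smallest p belonged to Pln with the cardiac myocyte marker sum (r = -0.72, permutation p = 0.0203, adjusted 0.459; rho = -0.63, permutation p = 0.0575; r = -0.60 without W3 and K11).

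**Figure D5:**
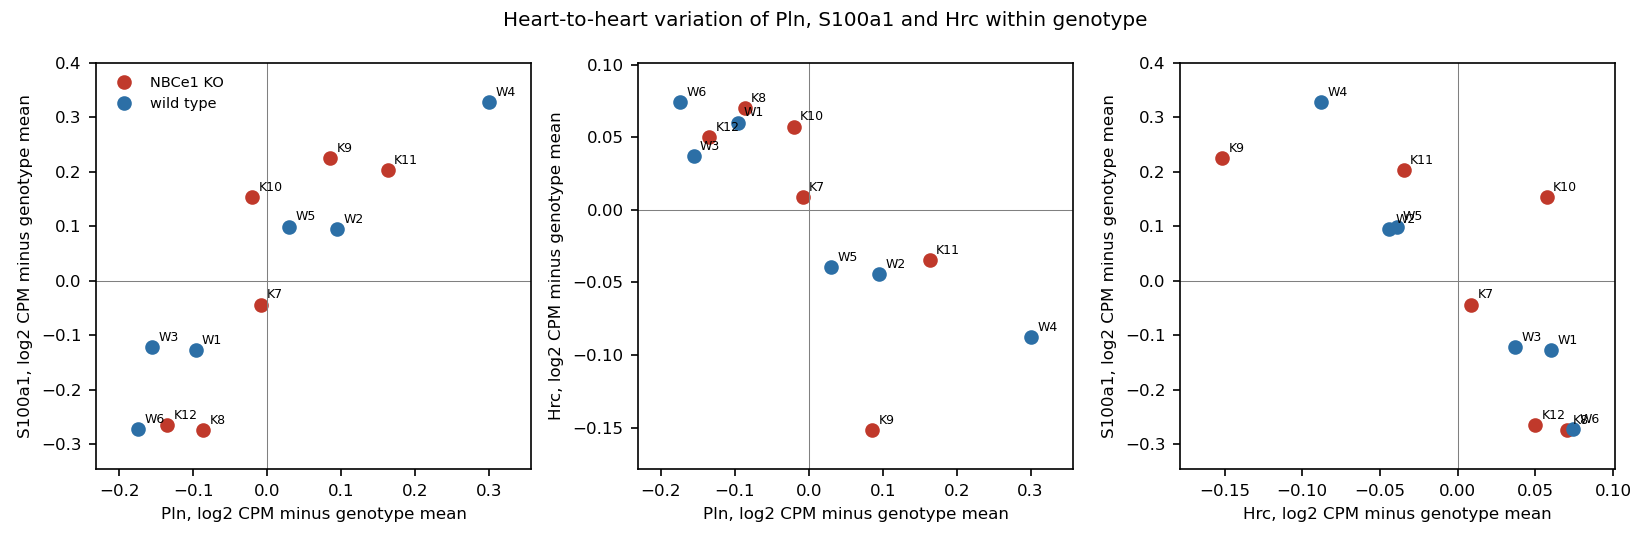
Heart-to-heart variation of Pln, S100a1 and Hrc, each as log2 CPM minus the mean of its genotype, with 1 labelled point per heart (knockout red, wild type blue). Pln and S100a1 rise together (r = 0.90), and Hrc falls as either rises (r = -0.79 with Pln and -0.80 with S100a1).

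The promoter windows of these 3 genes are printed because their levels varied together, S100a1 on chromosome 3 (chr3:90514281-90514580, minus strand), Hrc on chromosome 7 (chr7:45335019-45335318, plus strand) and Pln on chromosome 10 (chr10:53337436-53337735, plus strand), with the same motifs in capitals.
Pln: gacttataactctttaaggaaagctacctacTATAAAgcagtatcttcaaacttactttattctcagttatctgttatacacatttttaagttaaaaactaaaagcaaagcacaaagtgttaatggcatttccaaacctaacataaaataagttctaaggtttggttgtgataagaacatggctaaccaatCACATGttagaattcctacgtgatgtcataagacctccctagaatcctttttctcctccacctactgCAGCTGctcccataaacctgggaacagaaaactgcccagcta
S100a1: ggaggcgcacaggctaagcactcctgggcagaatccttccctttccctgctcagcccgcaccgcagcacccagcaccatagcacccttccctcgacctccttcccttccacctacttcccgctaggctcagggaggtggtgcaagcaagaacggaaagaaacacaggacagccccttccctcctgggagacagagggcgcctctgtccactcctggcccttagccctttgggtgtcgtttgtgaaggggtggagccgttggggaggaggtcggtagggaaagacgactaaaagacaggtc
Hrc: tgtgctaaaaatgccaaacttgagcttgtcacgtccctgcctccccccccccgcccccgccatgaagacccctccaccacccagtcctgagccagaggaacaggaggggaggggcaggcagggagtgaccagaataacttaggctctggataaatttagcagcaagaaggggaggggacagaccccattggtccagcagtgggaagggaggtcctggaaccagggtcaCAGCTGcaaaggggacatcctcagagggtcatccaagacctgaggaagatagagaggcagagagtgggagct
Pln has a TATAAA that begins at position -219, and E-boxes that begin at -59 and at 8. Hrc has an E-box that begins at -22, and the S100a1 window holds none of the 5 motifs. TATAAA is found in 13.6% of all windows, CATTCC in 14.7% and the SRF CArG box in 1.63%, and none of the 5 printed windows matched CATTCC or the CArG box. G and C make up 36.0% of the Pln window, 61.0% of the S100a1 window and 58.7% of the Hrc window. These values describe the promoter windows, and the base composition of the counted transcripts was not measured.

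The pump and the channel showed little relation in these hearts, though 12 hearts are too few to settle whether a moderate one exists. Over the 12 hearts the log2 CPM of Ryr2 and Atp2a2 had r = 0.07, given as a description. The genes most like Ryr2 among 10762 with a mean of at least 5 CPM were Pm20d2 (r = 0.91), Rsf1 (0.90), Rnf217 (0.86), Dcaf5 (0.85) and Zfp106 (0.83). The nearest member to Ryr2 was Jph2, at r = 0.51, which ranked only 740th among those genes. For Atp2a2 the nearest genes were Prmt5 (r = 0.89), Unc45b (0.89), Plekhg5 (0.88), Neu1 (0.86) and Cuedc1 (0.86). Pln had r = -0.68 with Atp2a2 on this scale and ranked 10599th from the highest, so other genes ran more strongly opposite. These r values come from 12 libraries that share depth and scaling, and the genes were picked as the highest of many.

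Around the 10 members, 70 further genes of calcium storage and its control were listed in 6 groups, of which 68 were in the table and 59 were tested. None passed the edgeR adjustment, 4 were higher and 1 lower at an unadjusted p under 0.05 (8.47% of those tested, against 4.06% of all genes), and their median log2 fold change was 0.04. DESeq2, which tested 68 genes of the list, and limma-voom, which tested 59, also called 0. Each had 5 at an unadjusted p under 0.05, where the share over all genes was 3.62% in DESeq2 and 4.1% in limma-voom. Strit1 and Arln had no match by symbol, and 9 genes were too low to test in edgeR, among them the skeletal ryanodine receptor Ryr1 and the channel-binding Fkbp1b.

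Among pump relatives and small regulators 5 of 7 were tested, 1 positive and 4 negative. Atp2a1, the skeletal form of the pump, measured 2.75 to 7.74 CPM in knockout hearts with a median of 3.12 CPM, and 1.23 to 3.12 CPM in wild type hearts with a median of 2.06 CPM. Of its knockout hearts 3 of 6 lay above all wild type hearts, and the log2 fold change was 0.85 ± 0.29 (SE; edgeR unadjusted p = 0.00889). Atp2a3, the pump of non-muscle cells, had a log2 fold change of -0.23 ± 0.12 (SE; edgeR unadjusted p = 0.0580).

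The group of kinases, phosphatases and anchors held 4 of the 5 genes under an unadjusted p of 0.05, with 11 of 14 log2 fold changes positive. Camk2a and Camk2b, subunits of the calmodulin-dependent kinase that phosphorylates the release channel and phospholamban, had log2 fold changes of opposite sign. Camk2d had the most reads of its subunit genes, with means of 413 CPM in knockout hearts and 390 CPM in wild type hearts. Its log2 fold change was 0.08 ± 0.06 (SE, edgeR unadjusted p = 0.205), and that of Camk2g was 0.04 ± 0.08 (SE, edgeR unadjusted p = 0.582). Camk2b had 10.1 to 13.8 CPM in knockout hearts and 12.5 to 17.1 CPM in wild type hearts, and 5 of 6 knockout hearts lay below all wild type hearts (log2 fold change -0.31 ± 0.11 SE, edgeR unadjusted p = 0.0126). Camk2a had 60.1 to 74.3 CPM in knockout hearts and 56.5 to 62.8 CPM in wild type hearts, with 5 of 6 knockout hearts above all wild type hearts (0.17 ± 0.07 SE, edgeR unadjusted p = 0.0174). Ppp2r5a, a regulatory subunit of protein phosphatase 2A, had the same pattern of 5 of 6 above (log2 fold change 0.13 ± 0.06 SE, edgeR unadjusted p = 0.0349). Pde4d, a cyclic AMP phosphodiesterase, had a log2 fold change of 0.18 ± 0.08 (SE; edgeR unadjusted p = 0.0415) with 1 knockout heart above all wild type hearts.

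The remaining groups held no gene under an unadjusted p of 0.05. Release channel relatives and binding partners had 6 positive and 6 negative log2 fold changes among 12 tested, and the smallest p belonged to the calmodulin gene Calm2 (0.10 ± 0.07 SE, edgeR unadjusted p = 0.176) and to Tmem38a, a counter-ion channel of the store (0.09 ± 0.06 SE, edgeR unadjusted p = 0.192). Luminal and cytosolic binding proteins had 9 positive and 3 negative among 12, led by Sdf4 (0.12 ± 0.07 SE, edgeR unadjusted p = 0.0890) and by calreticulin, Calr (0.07 ± 0.06 SE, edgeR unadjusted p = 0.297). Junction proteins had 8 positive and 1 negative among 9, led by Dysf, the membrane repair protein dysferlin (0.13 ± 0.08 SE, edgeR unadjusted p = 0.108), and junctophilin 1, Jph1 (0.11 ± 0.08 SE, edgeR unadjusted p = 0.202). Store-operated entry had 5 positive and 2 negative among 7, led by the calcium sensors Stim2 (0.14 ± 0.09 SE, edgeR unadjusted p = 0.132) and Stim1 (0.14 ± 0.10 SE, edgeR unadjusted p = 0.176).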

How the data were processed

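Whole-heart RNA of 12 mice was sequenced, 6 knockout and 6 wild type, in groups set by the labelled genotype, with 1 mouse per library per the design text. The authors deposited a table of raw counts of reads per gene. The mm10 build and the tools TopHat, DESeq, bcl2fastq and CASAVA 1.8 are named per the submitters' processing notes, without their order. Not given in the sources used here are the counting program, its annotation, its strand setting and its treatment of multi-mapping reads. Columns without a sample numbered 0. Of 24061 identifiers, 23976 matched a RefSeq name and 85 did not.

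Genes were filtered with filterByExpr (minimum count 10, minimum total 15), scaled by TMM and tested with the edgeR 4.0.16 quasi-likelihood F test in R 4.3.3, adjusted by Benjamini-Hochberg over 13832 genes at 0.05. CPM uses TMM-scaled library sizes, SEs come from the F statistic, with 95% intervals. Gene loci and overlaps came from RefSeq (GRCm38.p6, the same build as mm10), and exon lengths from GENCODE M21. Ratios were tested by exact permutation, and pairs by 100000 permutations of hearts within genotype. DESeq2 1.42.0, limma-voom (limma 3.58.1), other scalings and filters, and each library left out in turn were alternatives. The scripts were tested on simulated data. Plots were drawn with matplotlib 3.10.9. The share of mitochondrial transcripts is not used here.

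The members, gene lists, ratios and markers were chosen with earlier results of these data known. Named genes are the members, Slc4a4, the 2 genes with the smallest unadjusted p in each further list, and the 5 genes most like Ryr2 and Atp2a2. Ppp2r5a, Pde4d, Camk2d, Camk2g, Cacna1s, Myh1, Myh4, Col3a1, Acta2 and the red cell and liver genes were chosen after their values were seen. So were the pair of Atp2a2 and Pln, the pairs of hearts named and K10 as their exception.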

Additional observations from a re-analysis of the deposited data

Results flagged for a closer look

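In 5 of 54 sets of 6 hearts examined 1 heart stood far from the rest of its genotype (gap to the nearest heart over 0.625 of the whole range, Dixon's 95% limit), where chance gives about 1 in 20, or 2.7. Among the members this was the ratio of Casq1 to Casq2 reads in W3, at 0.0343 against 0.0186 to 0.0235 in the other wild type hearts. The other 4 were values of the libraries. K7 had the largest library among knockout hearts, with 12756955 counts. Its summed liver markers were also the highest of the knockout hearts, at 98.5 CPM against 28.3 to 38.4 CPM in the other 5, although Alb alone was above every wild type heart in all 6 knockout hearts. K11 had the highest summed fat cell markers of the knockout hearts, at 28.3 CPM. W2 had the highest summed red cell markers of the wild type hearts, at 30650 CPM.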

How the results depend on the processing

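The number of genes past the adjusted threshold, 0 with edgeR, was 11 with DESeq2 and 16 without a low-count filter, and 0 to 2 with each heart left out. In none of these settings was a member among them. The members with an unadjusted p under 0.05, 2 as reported, numbered 1 to 3 with a heart left out. Casq1, Casq2, Pln, Hrc, Asph and Jph2 stayed positive and Ryr2 negative on the log2 scale in all 20 alternatives, although with a heart left out Pln ran from 0.05 to 0.15, Asph from 0.02 to 0.09 and Ryr2 from -0.06 to -0.0026. Values near 0 changed sign with single hearts left out: Atp2a2 ran from -0.020 to 0.0098, Trdn from -0.057 to 0.020 and S100a1 from -0.080 to 0.040. With a heart left out the log2 difference of the Casq2 to Ryr2 ratio ran from 0.14 to 0.20, that of Casq1 to Casq2 from 0.23 to 0.41, that of Pln to Atp2a2 from 0.05 to 0.17 and that of Atp2a2 to Ryr2 from -0.0030 to 0.063. The pairs that varied together, 3 as reported, numbered 1 with library totals and 0 to 4 with a heart left out. With the longest transcript as length, levels were 3664 CPM per kb for Pln, 2679 for Atp2a2, 454.0 for Casq2, 267.2 for Hrc, 200.5 for Ryr2, 89.2 for Trdn and 41.5 for Asph. The cause of these shifts was not tested. No paired analysis was possible because the genotypes share no replicate numbers. Single members carried standard errors of 0.05 to 0.14 on the log2 scale.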
